A study of Drosophila melanogaster with 2 samples.

Results

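Tailless summits inside protein-coding sequence numbered 1534 of the 30000 summits in the pooled ChIP-seq list, or 5.11%. A pooled entry was counted when its summit base lay in a coding segment (CDS) of the gene annotation and more than 500 bp from the transcription start site (TSS) of any protein-coding transcript. These coding summits lay in 1210 genes. They were counted as listed, with no limit on the deposited q-value. As a class they were weaker and less recurrent than the rest of the list: their median deposited signal was 59.8, against 83.9 for all other pooled summits, and 615 of them (40.1%) lay in peaks of both replicates, against 67.2% of all pooled summits. A small number stood high in both replicates, led by a summit in Atg18a with a pooled signal of 1117.

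Chromatin came from whole embryos of Drosophila melanogaster collected at 0 to 4 h with males and females pooled, from the transgenic strain 8T-GFP, in which GFP is joined to the C terminus of the tll product. It was sonicated to fragments of 200 to 800 bp and precipitated with an antibody to GFP. There was 1 group, with 2 biological replicates numbered 1 and 3, and control samples were not analysed here. The driver of the transgene, the number of tll copies in the strain and whether embryos also carried untagged Tailless are not stated in the labels.

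Tailless is an orphan nuclear receptor of the terminal gap class. It is made at both poles of the blastoderm under the Torso receptor tyrosine kinase, acts mostly as a repressor of other segmentation genes, and later marks the brain anlage and neural progenitors. It binds DNA through a zinc-finger domain that recognises the word AAGTCA. Most characterised binding sites of such factors lie in promoters, introns and intergenic enhancers, whereas coding sequence is constrained by the protein it encodes. ChIP-seq maps where tagged protein is recovered with DNA from a mixture of all nuclei, so fewer cells with binding and weaker binding in each cell cannot be told apart.

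The sequences below are 101-bp windows centred on coding summits, from the Release 6 assembly (dm6) as distributed by RefSeq, written 5′ to 3′ on the strand of the host gene. The first 5 belong to the strongest coding summits on arms X, 2L, 3L and 3R that lay in both replicate lists and held the Tailless word within 50 bp, and capitals mark the word AAGTCA or its reverse complement TGACTT.
bif, chrX:11681852-11681952, plus strand: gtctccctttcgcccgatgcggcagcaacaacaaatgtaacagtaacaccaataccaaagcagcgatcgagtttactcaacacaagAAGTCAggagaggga
capu, chr2L:3893467-3893567, minus strand: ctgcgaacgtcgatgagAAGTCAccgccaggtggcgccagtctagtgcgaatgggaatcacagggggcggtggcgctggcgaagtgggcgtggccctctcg
sqd, chr3R:13642904-13643004, minus strand: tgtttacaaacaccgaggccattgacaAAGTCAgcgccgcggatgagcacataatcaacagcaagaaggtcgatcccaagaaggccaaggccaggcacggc
mnd, chr3L:14989946-14990046, plus strand: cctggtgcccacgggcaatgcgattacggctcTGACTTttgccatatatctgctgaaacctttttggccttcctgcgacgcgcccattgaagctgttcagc
scat, chr2L:9432855-9432955, plus strand: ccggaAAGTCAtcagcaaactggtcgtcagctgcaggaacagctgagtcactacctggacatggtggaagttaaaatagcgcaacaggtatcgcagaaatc
The next 4 lack the word; capitals mark the 11 bases at the summit. Atg18a and lbl held the highest coding summits of all, and tap and Toll-6 the highest on those arms among genes with a single exon.
Atg18a, chr3L:8189346-8189446, plus strand: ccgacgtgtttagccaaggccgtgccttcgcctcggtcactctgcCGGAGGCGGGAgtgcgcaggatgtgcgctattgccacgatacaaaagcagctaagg
lbl, chr3R:21427024-21427124, minus strand: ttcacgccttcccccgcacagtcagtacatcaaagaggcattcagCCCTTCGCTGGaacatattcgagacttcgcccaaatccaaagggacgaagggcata
tap, chr3L:17360816-17360916, plus strand: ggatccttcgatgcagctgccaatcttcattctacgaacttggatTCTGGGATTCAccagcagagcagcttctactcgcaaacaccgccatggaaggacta
Toll-6, chr3L:15341385-15341485, plus strand: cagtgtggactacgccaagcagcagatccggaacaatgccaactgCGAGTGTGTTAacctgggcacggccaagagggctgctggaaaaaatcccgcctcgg
All bases of these windows were coding in at least 1 transcript except 1 base of the Atg18a window and 21 of the lbl window, which were intronic.

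The strongest coding summit lay in Atg18a, which encodes a phosphoinositide-binding protein of autophagy. Its signal was 526 in replicate 1 and 573 in replicate 3, and it ranked 93 of the 30000 pooled summits. It lay in a coding segment of 159 bp shared by all 7 protein-coding transcripts of the gene, 1874 bp from the nearest TSS, which belonged to MED24. Next came lbl, a homeobox gene of muscle and nervous system, with 300 in replicate 1 and 291 in replicate 3 and a pooled signal of 589. The lbl summit was coding in only 1 of 3 transcripts of the gene and intronic or untranslated in the others that span it.

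Cda5, which encodes a chitin deacetylase-like protein, held a summit of 317 in replicate 1 and 234 in replicate 3. The bif summit had 321 in replicate 1 and 205 in replicate 3 and lay in a coding segment of 2537 bp; bif encodes an actin-associated protein of photoreceptors. Ent1, a nucleoside transporter gene, had 256 in replicate 1 and 246 in replicate 3. All 3 therefore stood high in both replicates, with replicate 1 the higher of the pair each time. CG18507 had 289 in replicate 1 and 185 in replicate 3, at a summit 581 bp from its own TSS and thus close to the distance limit.

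The tex summit was the exception among the 12 strongest. Its pooled signal was 422 and its replicate 1 signal 245, but its base lay in no interval of the replicate 3 list. The remaining 5 of the 12 lay in otp, a homeobox gene, Pde1c, a phosphodiesterase gene, capu, which encodes an actin-nucleating formin, CG33158 and drongo. Their pooled signals ran down to 306 at drongo, and all 5 lay in both replicate lists. Apart from the tex summit, the signals of the 12 in replicate 3 were 154 or more.

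The tagged gene tll also held coding summits. The labels do not give the number of tll copies in the strain, and its part in the signal there was not tested. The stronger tll summit had 136 in replicate 1 and 104 in replicate 3, a pooled signal of 206 and rank 3627. It lay 1277 bp from the tll start site in a coding segment of 1280 bp. A second tll summit, with a pooled signal of 67.4, lay in the same segment.

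**Figure D1:**
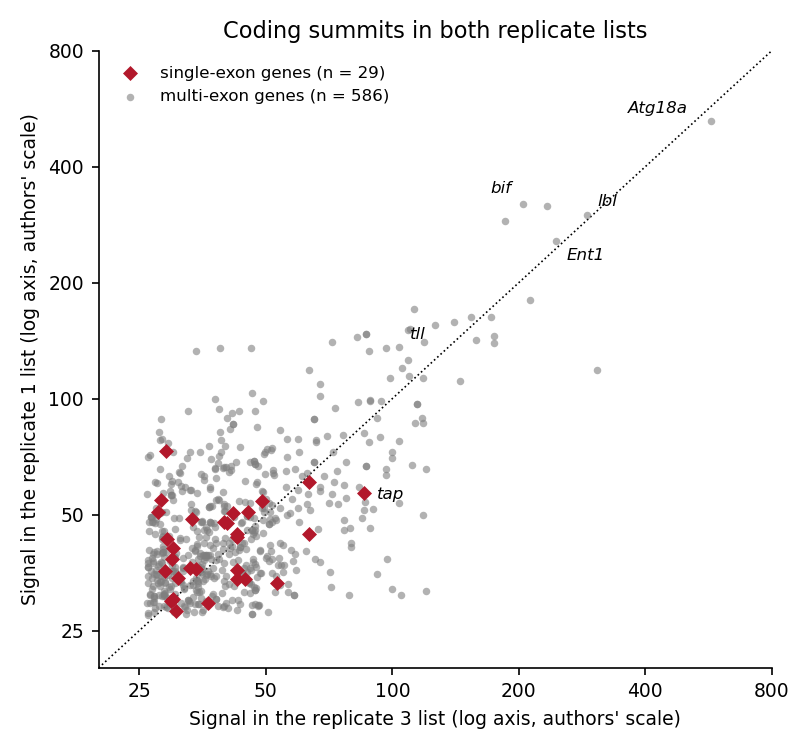
Signal of the 615 coding summits that lay in both replicate lists, replicate 3 on the horizontal axis and replicate 1 on the vertical axis (log axes, authors' scale); diamonds are the 29 in single-exon genes, grey points the 586 in multi-exon genes, and the dotted line marks equal values. Most points sit at low signal in both replicates, and Atg18a and lbl stand apart near the line.

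Signal was low for the coding class as a whole. The middle 50% of pooled signals ran between 52.5 and 75.7 for coding summits and between 60.6 and 138 for all other summits. The median was 102 for summits within 500 bp of a TSS, 77.2 for intronic, 78.5 for intergenic and 70.8 for UTR summits, so coding summits were the lowest of these classes. Their median rank was 22522, against 14522 for the others. The list ends at a signal of 47.0, so weaker coding summits are not described here.

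The same order held in each replicate. Over coding summits found in a replicate, the median replicate signal was 40.5 in replicate 1 and 37.0 in replicate 3 (38.7 ± 2.48, SD, n = 2). The ratio of this median to that of other pooled summits was 0.726 in replicate 1 and 0.709 in replicate 3 (0.717 ± 0.0114, SD, n = 2). The gap between coding and other summits was therefore larger than the spread between replicates. With 2 replicates and 1 group, no test across samples was run. Each replicate's own list held a similar coding share, 1790 summits (5.97%) in replicate 1 and 1638 summits (5.46%) in replicate 3.

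Coding summits became more frequent down the list. Of the 3000 strongest pooled summits 21 were coding (0.70%, exact 95% interval 0.434 to 1.07), and of the 3000 weakest 319 were (10.6%, 9.55 to 11.8). In replicate 1 the coding share was 0.933% in the strongest 3000 entries and 12.6% in the weakest, and in replicate 3 it was 0.767% and 11.6%. All 3 lists thus showed the gradient on their own ranking. All intervals are exact 95% intervals for counting error alone: nearby summits are not independent, and read depth is unknown. Differences between shares were not tested, and overlapping intervals do not show that shares are equal.

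**Figure D2:**
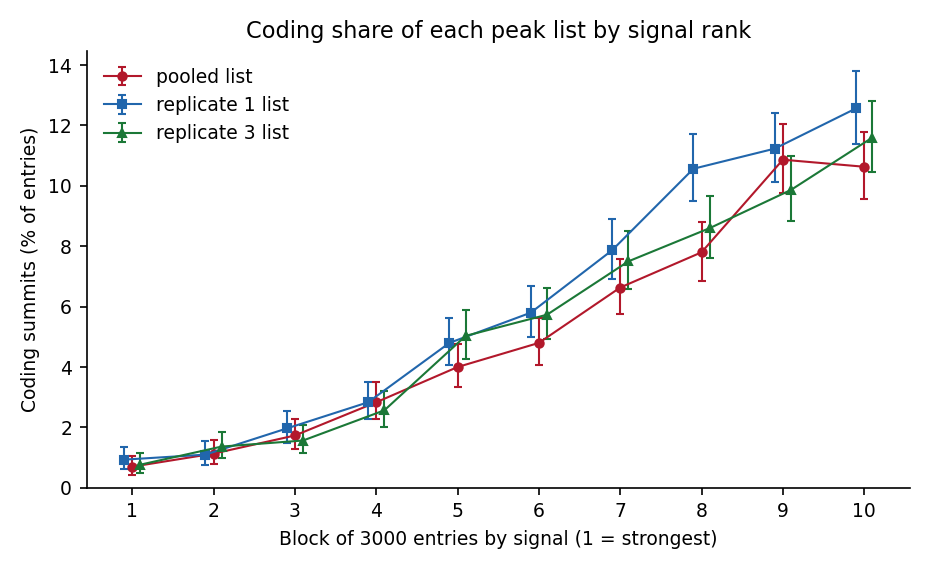
Coding share (% of entries, vertical axis) in 10 blocks of 3000 entries of each list ordered by signal (horizontal axis, block 1 strongest); bars are exact 95% intervals. In the pooled list and both replicate lists the share is near 1% in the strongest block and above 10% in the weakest.

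Recurrence was read from whether the summit base lay inside an interval of a replicate list. Replicate 1 held 1039 of the 1534 coding summits (67.7%), against 82.4% of all pooled summits. Replicate 3 held 956 (62.3%), against 81.3% of all pooled summits. Both held 615 (40.1%, 37.6 to 42.6), 1 alone held 765, and neither held 154. The share in both lists was 77.5% for promoter, 64.2% for intronic and 65.9% for intergenic summits, so coding summits recurred less often than each of these classes. Under every other definition of recurrence tried the coding share was also the lower one, for example 25.9% of coding and 49.7% of other summits when a summit of each replicate had to lie within 100 bp.

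Recurrence was therefore compared in 10 blocks of 3000 summits by pooled signal. In blocks 1 to 7 the intervals of coding and other summits overlapped: in block 1 20 of 21 coding summits lay in both lists (95.2%), against 98.3% of other summits, and in block 5 85.8% of coding summits did, against 82.8% of others. In the weakest 3 blocks they did not overlap: 26.1% of coding and 39.2% of other summits recurred in block 8, 15% of coding and 26.8% of other summits in block 9, and 11.0% of coding and 20.8% of other summits in block 10. Strong coding summits thus recurred about as often as other strong summits within these intervals, and weak coding summits less often than other weak ones.

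**Figure D3:**
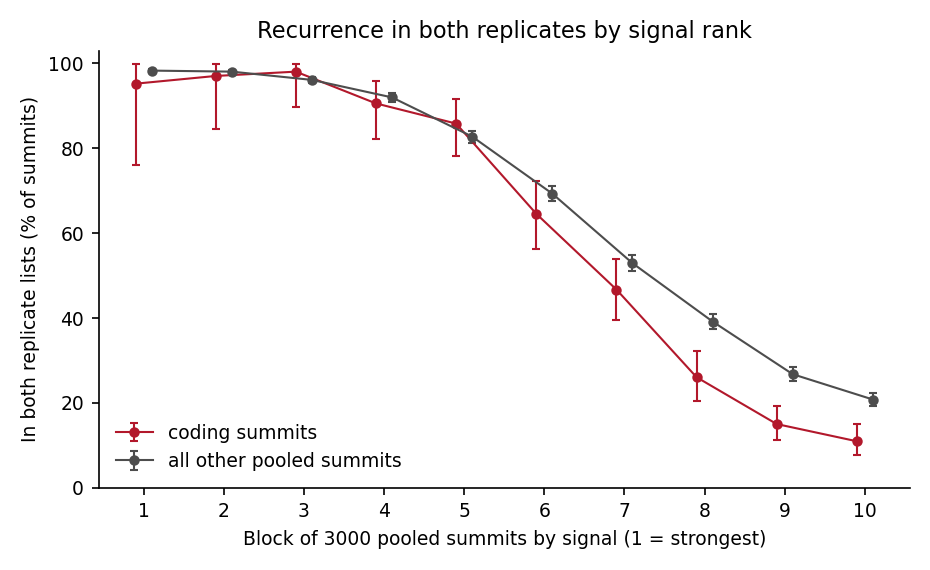
Share of pooled summits inside an interval of both replicate lists (%, vertical axis) by block of 3000 summits of the pooled list (horizontal axis, block 1 strongest), for coding summits (red) and all other pooled summits (grey); bars are exact 95% intervals. The intervals overlap in blocks 1 to 7 and lie apart in blocks 8 to 10, with coding summits lower.

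The 615 recurrent coding summits had a median pooled signal of 78.8. Those in replicate 1 alone (424) had 55.4, those in replicate 3 alone (341) had 55.7, and the 154 in neither had 50.6. Across the 615, the replicate signals had a Pearson correlation of 0.639 on log10 values and a Spearman correlation of 0.442; these points share the caller, the control alignment and the length limit of each list. For 19559 other recurrent summits the values were 0.757 and 0.639. In 220 of the 615 a matched replicate summit lay more than 100 bp away. At smo a pooled signal of 48.9 stood beside 152 in replicate 1 and 110 in replicate 3. These smo replicate values may belong to another summit in the interval.

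The authors' list past an irreproducible discovery rate threshold kept 31 coding summits (2.02%, 1.38 to 2.86), against 13.5% of all pooled summits. These 31 lay in 31 genes, with signals of 196 or more. All but the tex summit lay in both replicate lists. That is no separate result, because a threshold on the irreproducible discovery rate favours reproducible entries. How it was applied here is not stated. Of the 31, 23 were coding in every transcript that spans them, and 5 held the Tailless word (bif, capu, kcc, sqd and mnd). The median distance to the edge of the coding segment was 71 bp, and 19 were within 100 bp of an edge. At the ceiling of the deposited −log10 q-value, 4.26, stood 109 coding summits (7.11%), against 30.3% of all pooled summits. The lowest deposited value was 0.814. The ssp3 summit, whose signal of 59.8 was at the coding median, had a value of 1.21867. No q-value limit was applied, so a gene counted as having a coding summit may hold only an entry with weak q-value evidence.

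Which genes held coding summits was set against the coding sequence that could hold one. Coding sequence more than 500 bp from any TSS, called eligible here, covered 18.9 Mb in 12481 genes and held 81.3 coding summits per Mb. Of those genes, 9.69% had at least 1 coding summit and 3.98% had at least 1 that lay in both replicate lists. There was 1 coding summit in 961 genes, 2 in 203 and 3 or more in 46. Genes with a coding summit had a median of 1736 bp of eligible sequence, against 947 bp in genes without.

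Cda5 held the most coding summits, 10, of which 9 lay in both replicate lists. They lay over the alternative exons of the gene, and 8 of the 10 were intronic or untranslated in some transcript that spans them. The next in number was lola, which encodes a BTB zinc-finger factor with many spliced forms, with 9 summits of at most 89.1, of which 3 recurred. The muscle gene bt, which encodes the giant protein projectin, held 6, of which 2 recurred; its 26.6 kb of eligible sequence gave 0.226 summits per kb, against 1.14 per kb in Cda5. CG42327 and asp, a gene of the mitotic spindle pole, held 5 each, all in both lists. In CG42327 the 5 summits formed 2 runs with steps of about 200 bp, and some neighbours in a run shared a replicate value. A pair of asp neighbours shared both values, 27.6 in replicate 1 and 46.4 in replicate 3. In replicate 1 a lola pair shared 49.0 and a Cda5 pair 77.2. The recurrent counts of these genes therefore include neighbours with the same replicate value and are not all separate recurrences.

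In 1361 coding summits (88.7%) the summit base was coding in every protein-coding transcript of the gene that spans it. The other 173 were intronic or untranslated in some transcript. Of these 85 lay in both replicate lists (49.1%, 41.5 to 56.8), against 530 of the 1361 (38.9%, 36.3 to 41.6), and 8 were in the thresholded list (4.62%, 2.02 to 8.91), against 23 (1.69%, 1.07 to 2.52). Both pairs of intervals overlap. Only 41 lay within 500 bp of the TSS of a non-coding RNA. No 2 coding summits shared an interval, but 446 (29.1%) had a stronger pooled summit of any class within 1000 bp, and 203 had another coding summit within 250 bp. In 1503 (98.0%) the summit was the middle of its interval, so its position carries the resolution of the interval call.

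Single-exon genes held coding summits in near proportion to their share of sequence. A gene was called single-exon when each of its protein-coding transcripts has 1 exon. They held 74 of the 1534 coding summits (4.82%, 3.81 to 6.02), against 5.38% of eligible coding bases. Their density was 72.9 summits per Mb (57.3 to 91.6), against 81.8 per Mb (77.6 to 86.1) in multi-exon genes, and these intervals overlap. With the TSS limit at 250 bp the shares were 6.37% of coding summits and 6.99% of bases, and at 1000 bp 3.10% and 2.93%. Per gene the shares differed, 67 of 1498 single-exon genes (4.47%) against 1143 of 10983 multi-exon genes (10.4%), with a median eligible length of 478 bp in single-exon and 1112 bp in multi-exon genes.

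Signal and recurrence lay close together in these gene classes. The median pooled signal was 61.8 in single-exon and 59.7 in multi-exon genes. The share in both replicate lists was 39.2% (28.0 to 51.2) in single-exon and 40.1% (37.6 to 42.7) in multi-exon genes. The Tailless word lay within 50 bp of 4 of 74 summits in single-exon genes (5.41%) and of 113 of 1460 in multi-exon genes (7.74%). The top of the range was different: the highest single-exon summit was 144, and none of the 74 was in the thresholded list, which allows a share of up to 4.86%, against 31 of 1460 (2.12%) in multi-exon genes. A difference in that share was not detectable with 74 summits.

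The strongest single-exon summit lay in tap, a bHLH gene of the nervous system, with 57.0 in replicate 1 and 85.7 in replicate 3. CG17486 followed with 60.9 in replicate 1 and 63.4 in replicate 3. Toll-7, Toll-6 and 18w, which encode cell-surface receptors of the Toll family, were 3 of the 8 strongest. The Toll-7 summit had 73.3 in replicate 1 and 29.0 in replicate 3, a spread larger than that of the other 7. The Toll-6 summit had 50.9 in replicate 1 and 45.3 in replicate 3, and the 18w summit 50.6 in replicate 1 and 41.8 in replicate 3. CG11630, olf186-M and CG34431 completed the 8, with pooled signals of 98.0, 97.4 and 88.7. All 8 lay in both replicate lists but outside the thresholded list, and the Tailless word was within 50 bp only at CG34431.

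Short coding segments held summits at a higher density than long ones. The density was 110 per Mb in segments under 200 bp and 27.9 per Mb in segments of 5000 bp or more, with 99.7, 85.8, 71.3 and 50.4 per Mb in the classes between. The median segment at a coding summit was 629 bp, against 816 bp over eligible bases, and the median distance to the segment's edge was 123 bp, against 167 bp. Within 25 to 50 bp of an edge there were 109 summits per Mb, and beyond 1000 bp 34.5 per Mb. In segments of 500 to 1000, 1000 to 2000 and at least 2000 bp, multi-exon genes had 85.7, 71.0 and 44.8 summits per Mb. Single-exon genes had 87.3, 74.2 and 57.8 per Mb, on 19, 38 and 16 summits. Their intervals, 52.6 to 136, 52.5 to 102 and 33.1 to 93.9, overlap, so a fall with length is not resolved in single-exon genes. Recurrence did not follow the order of density. The share of coding summits in both replicate lists was 52.8% in segments under 200 bp and 61.1% (11 of 18) in the longest. In the classes from 200 to 5000 bp it was 35.3% to 39.8%.

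**Figure D4:**
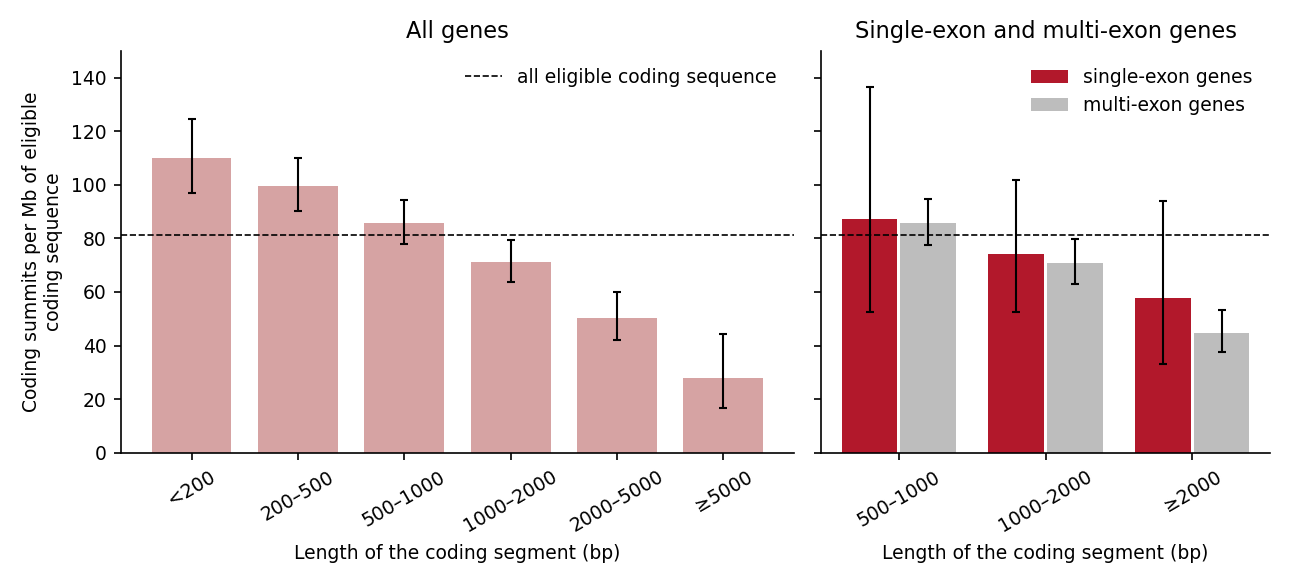
Coding summits per Mb of eligible coding sequence (vertical axis) by length of the coding segment (horizontal axis), for all genes (left) and for single-exon (red) and multi-exon (grey) genes (right); bars carry exact Poisson 95% intervals and the dashed line is the density over all eligible sequence, 81.3 per Mb. Over all genes density is lower in longer segments. The intervals of single-exon and multi-exon genes overlap within each length class.

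Density also varied along the coding sequence and between chromosome arms. With the longest coding sequence of each gene divided into 3 equal parts, there were 91.5, 74.1 and 79.1 summits per Mb from the part at the start codon to the part at the stop codon. Arm X had 47.0 coding summits per Mb of eligible sequence (39.9 to 54.9), against 86.6 to 91.6 on the large autosomal arms and 129 (88.5 to 181) on chromosome 4. Over all pooled summits and all sequence, X had 185 per Mb and the autosomal arms 215 to 244, so the pooled list was also sparser on X. Coding summits had 53.1% G and C within 50 bp, against 52.7% for eligible sequence and 42.7% for all other pooled summits.

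Among 20 gene lists the share of genes with a coding summit was highest for gap genes (57.1%), pair-rule genes (54.5%) and Hox genes (50%). Of 7 gap genes with eligible sequence, 4 had a coding summit, against 9.69% of all genes, and 3 had one in both replicate lists, against 3.98%. Besides tll these were Kr, the Krüppel zinc-finger repressor, with 54.8 in replicate 1 and 57.8 in replicate 3, kni, the knirps repressor, with 29.4 in replicate 1 and 47.1 in replicate 3, and hb, which was absent from replicate 1 and had 39.2 in replicate 3. Each list is small, the gap list resting on 6 summits in 9.61 kb, and none was tested. The gap counts include the tagged gene tll, which held 2 of those 6 summits and whose copy number the labels do not give.

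Pair-rule genes had a coding summit in 6 of 11, but only odd had one in both lists, with 48.7 in replicate 1 and 51.1 in replicate 3; prd was in replicate 1 alone, with 34.7. Among Hox genes it was 4 of 8, and only pb, with 61.2 in replicate 1 and 44.5 in replicate 3, recurred; Scr had 31.7 in replicate 1 alone. Neuroblast genes had 6 of 14, and only ase, a proneural bHLH gene with 34.1 in replicate 1 and 42.7 in replicate 3, recurred; esg, the strongest of them, had 39.9 in replicate 3 alone. These 3 lists were thus far from the share of all genes in the pooled list, yet rested on 1 recurrent gene each. Head gap genes had 3 of 10, led by toy, a Pax6 gene, with 147 in replicate 1 and 86.6 in replicate 3, the one list gene besides tll with a coding summit in the thresholded list, which reached 0.248% of all genes; ems had 39.3 in replicate 3 alone.

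Segment polarity genes had a coding summit in 5 of 15 and a recurrent one in 3. These were H15, a T-box gene, with 57.2 in replicate 1 and 39.5 in replicate 3, gsb, and smo. The gsb summit had 37.4 in replicate 1 and 26.2 in replicate 3, close to the end of the replicate 3 list. The smo replicate values may belong to another summit in the interval, as described above, and without smo the count is 2. Dorsoventral genes had 7 of 25, of which only brk, the single-exon repressor of Dpp targets, recurred, with 47.5 in replicate 1 and 40.4 in replicate 3; vn had 53.9 in replicate 3 alone. Notch pathway and Enhancer of split genes had 4 of 16, and both Su(H), the transcription factor of Notch signalling, with 68.4 in replicate 1 and 65.0 in replicate 3, and neur with 35.3 in replicate 1 and 48.4 in replicate 3 recurred. Cellularization genes had 4 of 16, of which 3 recurred, including slam, needed for membrane growth, with 58.2 in replicate 1 and 36.9 in replicate 3 and the Tailless word, and fog with 48.8 in replicate 1 and 27.4 in replicate 3. The recurrent share was above 3.98% in the segment polarity, Notch and cellularization lists, on counts of 2 or 3 genes, and close to it in the dorsoventral list.

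Receptor genes of the Toll family and cell adhesion had coding summits in 10 of 25, with 6 recurrent, but they are long: their 143 kb of eligible sequence held 105 summits per Mb, against 81.3 over all genes. Of 21 nuclear receptor genes 5 had one, and tll and kni were the 2 with a recurrent summit. In the Torso and Ras pathway, which acts upstream of tll, only cic of 17 genes had a coding summit (54.4 in replicate 1, absent from replicate 3).

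Of 8 lists of genes with general or later function, 6 had a coding summit in a smaller share than the 9.69% of all genes, and the muscle (11.1%) and phototransduction (13.6%) lists in a larger one. Coding summits were listed in 0 of 21 translation factor genes, 0 of 31 histone genes, 4 of 79 ribosomal protein genes, 2 of 32 cytoskeleton and chaperone genes, 2 of 18 muscle genes, 3 of 22 phototransduction genes, 3 of 91 cuticle genes and 5 of 119 odorant and gustatory receptor genes. A recurrent coding summit was found in 2 of 22 phototransduction, 1 of 18 muscle, 2 of 79 ribosomal protein and 3 of 119 odorant and gustatory receptor genes and in 0 genes of the other 4 lists, against 3.98% of all genes; the phototransduction share was thus above that of all genes as well. The ribosomal list reached 148 summits per Mb on 4 summits in 27.1 kb, so per base it was not low. That was above the cellularization (139), nuclear receptor (131), Toll-family and adhesion (105) and Torso and Ras (23.4) lists. The other developmental lists were higher, from 193 per Mb in segment polarity genes to 624 in gap genes. The muscle list had 49.2 summits per Mb and the phototransduction list 89.1, against 81.3 over all genes. The muscle share was thus higher per gene but lower per Mb. Cytoskeleton and chaperone genes had 50.7, cuticle genes 69.3 and odorant and gustatory receptor genes 67.4 per Mb. The counts of 0 rest on 34.0 kb in translation factor genes and 10.8 kb in histone genes. The strongest summit of the ribosomal list, in RpL3, had 28.9 in replicate 1 and 32.0 in replicate 3 beside a pooled signal of 86.1. Among the sensory genes, inaD had 40.4 in replicate 1 and 43.1 in replicate 3, and Gr39b 60.9 in replicate 1 and 30.9 in replicate 3. Hsp68, Act57B and the cuticle gene Ccp84Ae were in replicate 1 alone, with 31.5, 50.1 and 28.4. Over the 20 lists 75 genes had a coding summit, and 30 of them had one in both replicate lists.

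The Tailless word was then searched in the sequence at coding summits, on both strands. AAGTCA lay within 50 bp of 117 coding summits (7.63%, 6.35 to 9.07), against 9.89% of all pooled summits. Windows of the same length centred 500 bp to either side held it in 4.27%, and eligible coding sequence in 3.67%. Where the whole window was coding, 85 of 1125 windows at summits held it (7.56%), against 3.04% of 1316 wholly coding flanking windows and 3.50% of wholly coding windows over eligible sequence. At coding summits the word was therefore about as frequent in purely coding windows as in all windows, and above the coding sequence around them.

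The word was more frequent at stronger and recurrent coding summits. It lay at 62 of 615 coding summits in both replicate lists (10.1%, 7.82 to 12.7) and at 55 of 919 others (5.98%, 4.54 to 7.72). It lay at 9.65% of the stronger 767 coding summits (7.65 to 12) and at 5.61% of the weaker 767 (4.09 to 7.48). The first pair of intervals and the second pair both lie apart. The longer word AAAGTCA lay at 3.06% of coding summits, against 1.18% of eligible windows. It lay at 4.39% of recurrent coding summits (2.91 to 6.32) and 2.18% of the others (1.33 to 3.34), and at 3.78% of the stronger 767 (2.55 to 5.39) and 2.35% of the weaker 767 (1.40 to 3.68), and for this word both pairs of intervals overlap.

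**Figure D5:**
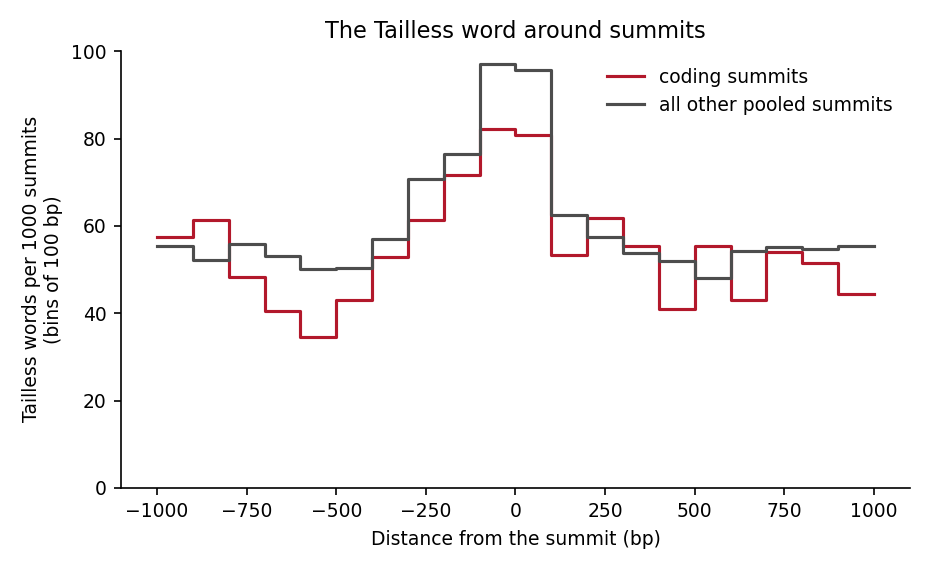
Occurrences of AAGTCA on either strand per 1000 summits (vertical axis) in bins of 100 bp by distance from the summit (horizontal axis), for coding summits (red) and all other pooled summits (grey). Both curves are highest in the 2 bins beside the summit, at 82.1 and 80.8 for coding summits and 97.0 and 95.8 for the others.

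The word's place in the codons at coding summits was that of coding sequence in general. Of 114 occurrences that lay wholly in the longest coding sequence of the gene, the coding strand read AAGTCA with its first base at codon position 1 in 28, position 2 in 21 and position 3 in 15. It read TGACTT from codon position 3 in 38, from position 2 in 12 and from position 1 in 0, where the reading frame would meet a stop codon. The most frequent class made up 33.3% of the occurrences at coding summits and 33.2% of the 8418 in all coding sequence.

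Other words were compared in the same way. CAGGTA, the core of the site of Zelda, an activator of early zygotic genes, lay within 50 bp of 113 coding summits (7.37%, 6.11 to 8.79), against 4.01% of all pooled summits and 3.25% of eligible windows. CAGGTA also resembles the 5′ splice site at the end of a coding segment; in wholly coding windows it was found at 6.22% of coding summits, against 2.51% of coding flanks and 2.83% of eligible windows. Of 2062 words of 6 letters found in at least 1% of eligible windows, CAGGTA and AAGTCA had the highest and second-highest ratio of coding summits to eligible sequence, 2.28 and 2.09, followed by AGTCAA, which overlaps AAGTCA by 5 letters, at 1.95. The GAGA word GAGAGA lay at 2.22% of coding summits and in 2.33% of eligible windows, and CAGCTG at 7.37% and 7.64%, so these were at the level of coding sequence. The DRE word TATCGATA, found at many housekeeping promoters, lay at 2 coding summits (0.13%), against 0.0834% of eligible windows and 1.34% of other pooled summits, of which promoter summits held it in 3.69%.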

How the data were processed

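ChIP-seq of GFP-tagged Tailless was analysed from 4 peak lists that the authors deposited in dm6 coordinates: 1 per replicate, 1 pooled and 1 past an irreproducible discovery rate threshold. Each replicate list came from its own alignment and a shared control alignment, and the pooled list from both replicates, per the labels and the text deposited with the files. The sources used here do not name the aligner, peak caller or threshold. In the deposited lists the signal of an entry is the enrichment its caller gave, on an unstated scale, and served to describe and rank entries within a list; pooled and replicate values are not on 1 scale. The deposited −log10 q-value has a ceiling and was used neither to rank nor to filter entries here. Each summit base is the interval start plus the deposited offset in bp. The lists hold no read counts, so depth is unknown.

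Python 3.11.15, numpy 2.4.6, pandas 2.3.3, scipy 1.17.1 and matplotlib 3.10.9 were used, with the Ensembl release 115 annotation (BDGP6.54) and the Release 6 sequence, the same assembly as dm6. A replicate value is that of the nearest summit among replicate intervals holding the pooled summit base. Binomial (Clopper-Pearson) and Poisson intervals are exact. Class, recurrence, word and frame counting were tested on simulated summits. Word backgrounds sampled eligible coding bases every 100 bp for the 6-letter words. Members and gene lists were chosen with earlier results of these data known. Named genes are those of the 12 strongest coding summits, the 8 strongest in single-exon genes, the 5 genes with most coding summits and up to 2 genes of each list with the strongest summits; tll, hb, smo, kcc and the sequences of the strongest summits were added after values were seen. Promoter means within 500 bp of a protein-coding TSS. Alternatives covered the TSS distance, transcripts, interval sharing, replicate lists, the thresholded list, recurrence, exon definitions and word windows.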

Additional observations from a re-analysis of the deposited data

How the results depend on the processing

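With the thresholded list in place of the pooled list there were 31 coding summits, with a median signal of 266. Of these 96.8% lay in both replicate lists, 0% in single-exon genes and 16.1% beside AAGTCA. That list holds strong entries and was thresholded on reproducibility, in a way not stated, so its high recurrence is no separate result. With 1 replicate list in place of the pooled list, coding summits numbered 1638 to 1790, the median signal was 33.0 to 34.7 on the replicate scale, the single-exon share 5.31% to 5.86% and the word share 6.90% to 7.15%. Recurrence in both lists was 25.9% of coding summits (49.7% of others) with replicate summits within 100 bp, 15% (32.0%) within 50 bp, 47.1% (76.5%) with intervals overlapping by 1 bp, and 2.22% (12.5%) with only the strongest replicate entries. The single-exon share was 6.37% at a TSS distance above 250 bp, 3.10% above 1000 bp and 7.82% for genes with 1 coding segment. The share of eligible bases in genes with 1 coding segment is not available here, so the 7.82% cannot be set against it. AAGTCA lay within 25 bp of 3.85% and within 100 bp of 14.3% of coding summits, and within 50 bp of 9.38% of those with no stronger pooled summit within 1000 bp, an alternative chosen after seeing the data. Of the 714 list genes, 30 had a coding summit in both replicate lists, against 497 of all 13945 protein-coding genes. In the thresholded list 2 list genes had a coding summit, against 31 of all genes. The cause of these differences was not tested. Against its share of eligible bases, the single-exon share was lower above 250 bp (6.99% of bases) and 500 bp (5.38%) and higher above 1000 bp (2.93%); against the 5.38% it was also higher in the replicate 3 list.

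The thresholded share could not be recomputed from a replicate list, nor recurrence without a replicate, and these were not run. No paired analysis was possible because there was 1 group and no test. Depth is unknown, and lists end at 30000 entries, so weaker summits, at which coding ones were most frequent, are not seen.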
